A study of Arabidopsis thaliana with 12 samples.

Results

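The comparison set seedlings of the uninduced GFP-TFIISmut line against seedlings of the uninduced GFP-TFIIS line, across all genes of the deposited expression table. Both lines are Arabidopsis thaliana, ecotype Columbia, 10 DAS, grown on MS medium under long days. Both carry the tfIIs-1 insertion (SALK_056755), a T-DNA in TFIIS, whose product assists RNA polymerase II during elongation. Each also has an estradiol-inducible transgene, which encodes GFP-TFIISmut or GFP-TFIIS. In the TFIISmut mock and TFIIS mock groups the seedlings received ethanol for 24 h, so the transgene was not induced. In the TFIISmut induced and TFIIS induced groups they received 2 mM b-estradiol for 24 h, the concentration as the labels write it. Each group has 3 libraries, so the comparison covers 6 of 12 libraries. The labels give neither the place of each transgene insertion nor the number of independent lines, and the promoter of the inducer is not stated. Stranded mRNA libraries (TruSeq) were made from RNA purified on RNeasy columns.

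The table gives a single value per gene and group, read here as FPKM (fragments scaled by transcript length and by the size of the library), with the libraries of a group already combined. The values therefore have no error and no number of replicates, nothing below was tested against the spread between seedlings, and reads per library are unknown. That the column of a pool belongs to its line and treatment was inferred from abbreviated column names. Of 32705 rows, the 38 that share 19 repeated identifiers were dropped, 9582 were listed at 0 in a mock pool and 8972 stayed under 5 FPKM in both. The other 14113 genes are called eligible. A difference is log2(FPKM + 1) in TFIISmut minus that in TFIIS, which understates differences of low genes. Higher and lower mean a difference of at least 1 or at most -1, called 2-fold here.

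Much of what follows concerns abscisic acid, the hormone with which plants respond to loss of water. NCED enzymes make its precursor in drying tissue, PYR and PYL receptors bind it, and the bound receptors inhibit clade A PP2C phosphatases. SnRK2 kinases are then active and phosphorylate bZIP factors, which bind promoter elements with an ACGT core. Among the genes turned on are those of dehydrins and other late embryogenesis abundant (LEA) proteins, which protect dehydrated cells, and those of the PP2C phosphatases, which dampen the signal. Cold and drought also act through CBF and DREB2 factors, which bind elements with a CCGAC core.

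The mock pools were close to each other over most of the transcriptome. Of the eligible genes 13614, or 96.5%, differed by 1.5-fold or less, the median difference was 0.01, and the robust SD was 0.18, against 0.46 between the induced pools. The FPKM of the mock pools summed to 964295 in TFIISmut and 900276 in TFIIS, with 13671 and 13904 genes at 5 FPKM or more. Markers of the tissues of a seedling differed little. The 13 measured root markers had a median difference of 0.05 and summed to 79.3 FPKM in TFIISmut mock and 77.5 FPKM in TFIIS mock. The 13 markers of epidermis and stomata had a median of 0.07 and sums of 120 and 115 FPKM, and 0 of 10 seed storage markers reached 1 FPKM. Measured, for members of a list, means at least 1 FPKM in a mock pool and no 0 in either.

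TFIIS itself (AT2G38560) did not pass the rule between the mock pools. Its row stood at 17.58 FPKM in TFIISmut mock and 21.07 FPKM in TFIIS mock, a difference of -0.25. After induction it was at 87.0 FPKM in TFIISmut and 742 FPKM in TFIIS, a difference of -3.08. The row cannot separate transcripts of the disrupted gene from those of a transgene.

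In all, 35 genes were higher in TFIISmut mock, 0.248% of those eligible, and 111 were lower, 0.787%. Of the 111 lower genes, 30 were among the 126 members of 10 lists for abscisic acid, drought, cold, proline, lipid transfer proteins and wax. Members of the other 20 lists made up 5 further lower genes and 2 higher genes. Thus 35 of the 111 lower genes were in any list, and the rest were in none. The lists were chosen with earlier results of these data known, so these counts cannot show whether the lower genes share a theme. In RNA of whole seedlings, fewer cells of a type and less RNA per cell cannot be told apart.

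**Figure D1:**
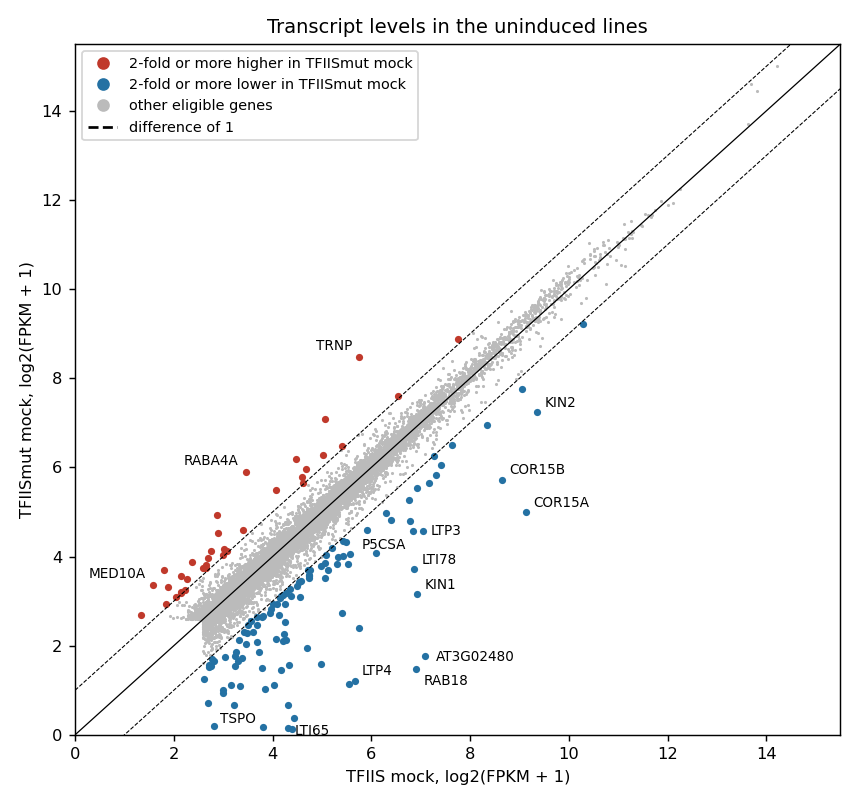
Transcript levels of the 14113 eligible genes, with log2(FPKM + 1) in TFIISmut mock on the vertical axis and in TFIIS mock on the horizontal axis. The solid line marks equal levels and the dashed lines a difference of 1; the 111 lower genes (blue) reach further from the line, to -5.43 for RAB18, than the 35 higher genes (red), whose extreme is TRNP at 2.72.

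Most eligible genes of LEA proteins and dehydrins were lower in the TFIISmut mock pool. Of 20 listed genes 14 were measured and 13 were eligible; 8 were lower, 0 were higher, and the median difference was -1.33, against 0.00 over all 18706 measured genes. A gene under 5 FPKM in TFIISmut mock is eligible only through its TFIIS mock level. The counts for this list and for those below therefore describe the lists and do not measure how regular the difference was. RAB18 (AT5G66400), a dehydrin gene used as a marker of the abscisic acid response, was at 1.78 FPKM in TFIISmut mock and 119 FPKM in TFIIS mock, a difference of -5.43. The induced pools had 6.76 FPKM in TFIISmut and 2.39 FPKM in TFIIS, so the TFIIS mock pool was high and the other 3 pools were low. The annotated gene overlaps PLP3B, which was at 35.6 FPKM in TFIISmut mock and 31.5 FPKM in TFIIS mock and did not share the difference.

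The other strongly lower LEA genes had the same order of pools. AT3G02480, which encodes a small LEA-type protein, was at 2.41 FPKM in TFIISmut mock and 135 FPKM in TFIIS mock (difference -5.32), with 6.51 and 4.32 FPKM in TFIISmut induced and TFIIS induced. AT1G52690, named LEA7 in the reference, was at 1.21 FPKM in TFIISmut mock and 45.8 FPKM in TFIIS mock (-4.41), with 3.69 and 1.91 FPKM in TFIISmut induced and TFIIS induced. LEA4-5 was at 0.30 FPKM in TFIISmut mock and 20.7 FPKM in TFIIS mock (-4.07). These genes were low in the mock pool of the TFIISmut line and low in both induced pools. Members with higher base levels differed less: ERD10, an acidic dehydrin, was at 65.6 FPKM in TFIISmut mock and 169 FPKM in TFIIS mock (-1.35), and HIRD11, another dehydrin, was at 1096 and 1180 FPKM (-0.11). DI21 was the single measured member above 0, at 84.8 FPKM in TFIISmut mock and 66.7 FPKM in TFIIS mock (0.34).

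Further genes known to be induced by drought and cold showed the same direction. Of 28 listed genes 27 were measured and 24 eligible; 14 were lower, 0 were higher, 25 had a difference below 0, and the median was -1.15. Members such as LTI65, TSPO and PXG3 were eligible only through their TFIIS mock level, so here too the counts and the median only describe the list. LTI65 (RD29B), a hydrophilic protein gene responsive to abscisic acid, was at 0.11 FPKM in TFIISmut mock and 18.8 FPKM in TFIIS mock, a difference of -4.16. The induced pools had 0.33 FPKM in TFIISmut and 0.52 FPKM in TFIIS, so LTI65 was under 1 FPKM in the other 3 pools. Its neighbour LTI78 (RD29A), which responds to cold and drought as well, was at 12.2 FPKM in TFIISmut mock and 115 FPKM in TFIIS mock (-3.14), with 13.5 and 19.1 FPKM in TFIISmut induced and TFIIS induced.

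COR15A, which encodes a chloroplast protein that protects membranes in the cold, was at 30.8 FPKM in TFIISmut mock and 560 FPKM in TFIIS mock, a difference of -4.14. It was at 28.0 FPKM in TFIISmut induced and 59.1 FPKM in TFIIS induced, so that it was lower in the TFIISmut line in both comparisons, with a difference of -1.05 after induction. COR15B, its tandem paralog, was at 51.7 FPKM in TFIISmut mock and 401 FPKM in TFIIS mock (-2.93), with 30.2 and 76.4 FPKM in TFIISmut induced and TFIIS induced. KIN1, a cold-induced gene of a small hydrophilic protein, was at 7.91 FPKM in TFIISmut mock and 120 FPKM in TFIIS mock (-3.77), and its tandem paralog KIN2 was at 150 and 657 FPKM (-2.12). How alike the copies of each pair are in sequence was not examined. Reads may have been divided between copies that are alike, so each pair is better read together. Both members of each pair were lower.

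Other members of this list have different roles. PXG3 (RD20), a calcium-binding caleosin of oil bodies, was at 4.23 FPKM in TFIISmut mock and 52.9 FPKM in TFIIS mock (-3.37). TSPO, a membrane protein gene induced by abscisic acid, was at 0.13 FPKM in TFIISmut mock and 13.0 FPKM in TFIIS mock (-3.63). RD22, also a drought-induced gene, was barely past the threshold, at 75.9 FPKM in TFIISmut mock and 154 FPKM in TFIIS mock (-1.01). ERD1 and RD21A, drought-induced genes of proteases, were at -0.13 and -0.12 and did not pass the rule.

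**Figure D2:**
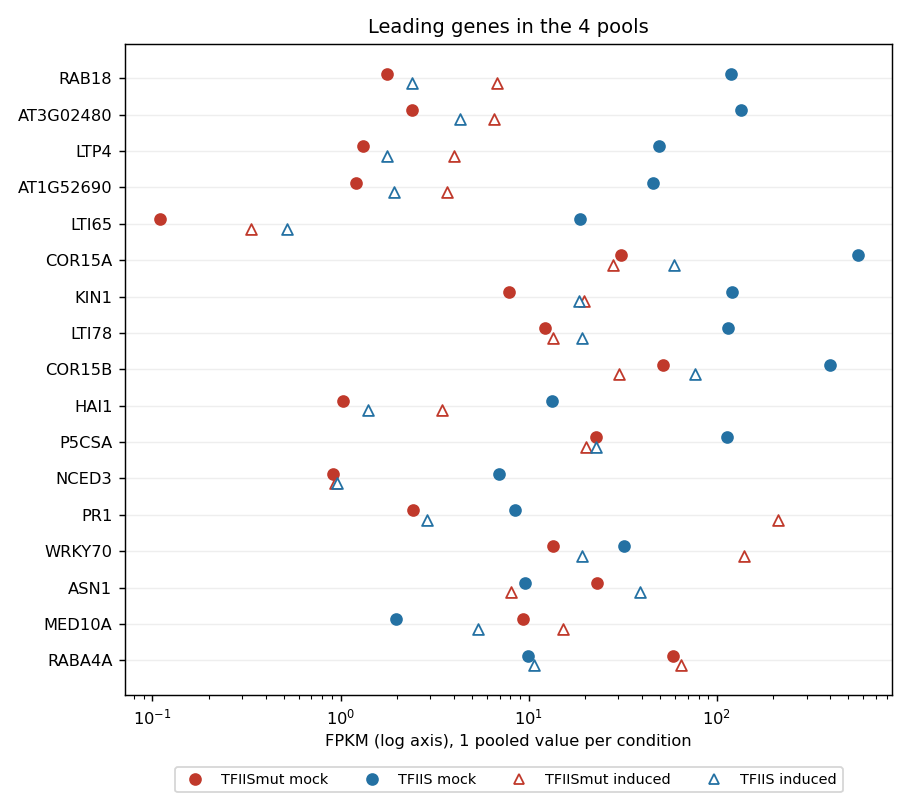
FPKM of 17 leading genes in the 4 pools on a log axis, with mock pools as filled circles and induced pools as open triangles, TFIISmut in red and TFIIS in blue. From RAB18 to NCED3 the TFIIS mock circle lies to the right of the other 3 points, whereas RABA4A separates by line, at 58.7 and 64.9 FPKM in the TFIISmut pools and 9.94 and 10.6 FPKM in the TFIIS pools.

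The TFIIS mock pool held the highest of the 4 values for 87 of the 111 lower genes, or 78.4%, and for 17.5% of all eligible genes. Since lower genes were chosen with the TFIIS mock value as the larger of 2, part of this share comes from the choice. Among the 25 lower genes of the LEA, drought and PP2C lists it was the highest in 25 of 25. These genes were chosen in the same way, from lists picked with earlier results of these data known, so the choice enters this count as well. Among the 35 higher genes the TFIIS mock pool held the lowest of the 4 values in 19, or 54.3%, against 22.3% of all eligible genes. Higher genes were chosen with the TFIIS mock value as the smaller of 2, so part of this share, too, comes from the choice. Each pool stands for 3 libraries, and whether a single library carried these values was not tested.

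Within the abscisic acid pathway 1 synthesis gene and 3 phosphatase genes were lower, and no receptor, kinase or bZIP gene passed the rule. NCED3, the gene of the NCED enzyme that drought induces, was at 0.91 FPKM in TFIISmut mock and 6.94 FPKM in TFIIS mock (-2.05), with 0.93 and 0.95 FPKM in TFIISmut induced and TFIIS induced. The other measured genes of synthesis, breakdown and transport lay between -0.56 and 0.20, and NCED3 was the single gene of 6 eligible that was lower. ABA1 and ABA2, the enzymes before and after the NCED step, were both at 0.03.

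Of 14 receptor genes 9 were measured; 7 had a difference above 0, the median was 0.21, and 0 passed the rule. PYL4 was at 141 FPKM in TFIISmut mock and 95.8 FPKM in TFIIS mock (0.55), PYL5 at 48.6 and 34.5 FPKM (0.48), and PYR1 at 82.6 and 65.3 FPKM (0.33). The clade A PP2C phosphatase genes stood on the other side: 7 of 9 were measured, 7 of 7 had a difference below 0, the median was -1.07, and 3 of 6 eligible were lower. HAI1 was at 1.03 FPKM in TFIISmut mock and 13.3 FPKM in TFIIS mock (-2.82), with 3.48 and 1.40 FPKM in TFIISmut induced and TFIIS induced. PP2CA was at 10.9 FPKM in TFIISmut mock and 25.7 FPKM in TFIIS mock (-1.17), ABI2 at 2.26 and 5.83 FPKM (-1.07), and HAB2 at 11.7 and 13.3 FPKM (-0.17). The size of the difference thus varied widely among these phosphatases. HAI1 and ABI2 were eligible only through their TFIIS mock level. HAI2, at 0.14 FPKM in TFIISmut mock and 2.86 FPKM in TFIIS mock, was measured only that way. The counts and the median therefore describe the list and do not measure how regular the difference was.

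Of the 8 measured kinase and transcription factor genes of the pathway 7 had a difference below 0, with a median of -0.18. ABF3, a bZIP factor, was at 12.3 FPKM in TFIISmut mock and 22.4 FPKM in TFIIS mock (-0.81), and the kinase gene SNRK2.2 at 89.8 and 102 FPKM (-0.18). Of the CBF and DREB2 group, 6 of 9 were measured, 3 were eligible and 0 passed the rule. CBF3 was at 0.33 FPKM in TFIISmut mock and 1.55 FPKM in TFIIS mock (-0.94), and DREB2A at 2.89 and 4.35 FPKM (-0.46). COR15A and KIN1, known targets of CBF factors, were at -4.14 and -3.77. On log2(FPKM + 1), genes as low as CBF3 and DREB2A cannot reach differences of that size. The sizes for factors and targets therefore cannot be compared here.

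Other downstream functions were represented by 1 or 2 lower genes per list. P5CSA (P5CS1), the stress-induced enzyme of proline synthesis, was at 22.7 FPKM in TFIISmut mock and 113 FPKM in TFIIS mock (-2.27), while its paralog P5CS2 was at 33.5 and 36.2 FPKM (-0.11). ERD5, the proline dehydrogenase gene of proline breakdown, was at 137 FPKM in TFIISmut mock and 86.3 FPKM in TFIIS mock (0.66). Of 6 lipid transfer protein genes, LTP4 was at 1.32 FPKM in TFIISmut mock and 49.6 FPKM in TFIIS mock (-4.45) and its neighbour LTP3 at 22.7 and 131 FPKM (-2.48). LTP1, LTP2, LTP5 and LTP6 lay between -0.21 and 0.15. CER1, a gene of wax alkane synthesis, was at 10.5 FPKM in TFIISmut mock and 25.8 FPKM in TFIIS mock (-1.23).

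**Figure D3:**
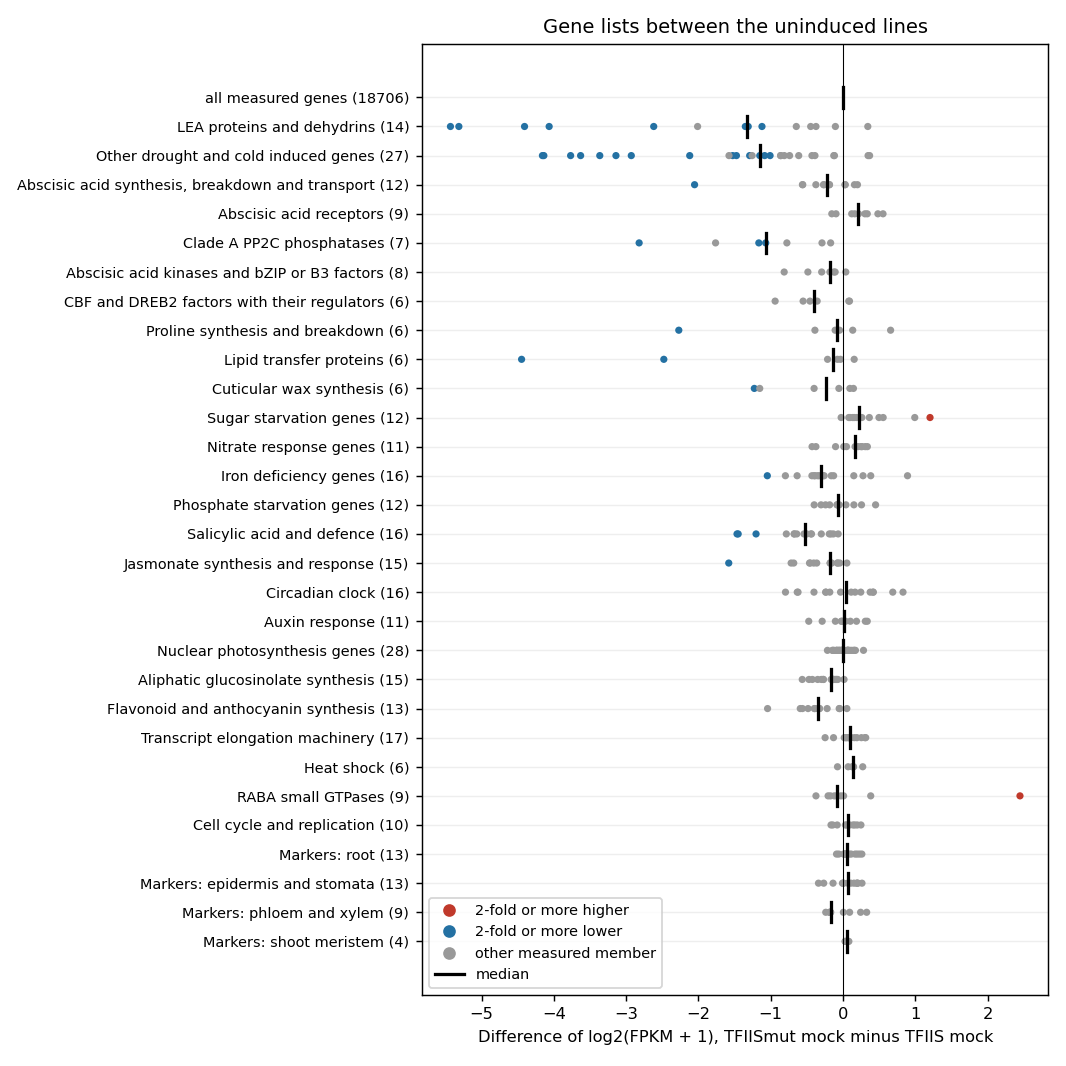
Differences of the measured members of 29 gene lists and the median of all 18706 measured genes, in log2(FPKM + 1), TFIISmut mock minus TFIIS mock; the number of measured members stands in brackets and the black bar is the median. The LEA, drought and cold, and PP2C lists have medians of -1.33, -1.15 and -1.07, and the medians of the other lists lie between -0.52 and 0.22.

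The promoters of the lower genes were read for letters that the factors named above are known to bind. The windows were the 250 bases before each annotated start in RefSeq TAIR10.1, and both strands were searched. ACGTGNC, the abscisic acid response element, was in 21 of 100 promoters of lower nuclear protein-coding genes, or 21%, and in 9.47% of 13811 promoters of all such eligible genes. CCGAC, the drought response element core, was in 24% and in 13.3%. Of the 20 higher nuclear protein-coding genes 3 held ACGTGNC, or 15%, and 4 held CCGAC, or 20%, so both shares were above those of all eligible genes there too. For the 25 lower genes of the LEA, drought and PP2C lists the shares were 40% and 40%, and for the 75 lower genes outside them 14.7% and 18.7%. For the 18 eligible members of the same lists that were not lower, ACGTGNC was in 16.7% and CCGAC in 33.3%. CACGTG, the G-box, which can overlap ACGTGNC, was in 18% of lower genes and 7.39% of all. TGGGCC, the site II element, was in 7% and 18.3%. These shares are descriptions, and a match is not evidence of binding.

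Promoters of 3 of the lowest genes and of RABA4A, the protein-coding gene with the largest positive difference, show how unlike these windows are. Capitals mark ACGTGNC or CCGAC on either strand, and each sequence runs 5′ to 3′ on the strand of its gene and ends at the base before the annotated start. LTI65 lies at chr5:21236771-21237020 on the plus strand, COR15A at chr2:17712331-17712580 on the minus strand and AT3G02480 at chr3:511970-512219 on the plus strand. RABA4A lies at chr5:26083067-26083215 on the plus strand and is shown over 149 bases, up to the neighbouring gene.
LTI65: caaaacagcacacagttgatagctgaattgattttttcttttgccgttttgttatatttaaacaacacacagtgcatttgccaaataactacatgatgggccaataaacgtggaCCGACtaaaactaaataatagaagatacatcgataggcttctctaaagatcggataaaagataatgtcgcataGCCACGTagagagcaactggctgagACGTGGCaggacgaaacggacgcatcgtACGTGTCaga
COR15A: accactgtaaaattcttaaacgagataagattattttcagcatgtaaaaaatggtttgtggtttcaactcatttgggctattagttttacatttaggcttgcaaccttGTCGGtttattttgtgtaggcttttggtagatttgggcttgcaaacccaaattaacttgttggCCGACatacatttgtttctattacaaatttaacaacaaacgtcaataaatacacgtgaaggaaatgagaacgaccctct
AT3G02480: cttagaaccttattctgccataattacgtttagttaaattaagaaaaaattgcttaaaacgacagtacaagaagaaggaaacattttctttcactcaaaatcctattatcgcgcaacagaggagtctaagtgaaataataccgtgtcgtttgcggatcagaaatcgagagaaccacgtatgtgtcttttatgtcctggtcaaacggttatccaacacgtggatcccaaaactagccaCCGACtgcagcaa
RABA4A: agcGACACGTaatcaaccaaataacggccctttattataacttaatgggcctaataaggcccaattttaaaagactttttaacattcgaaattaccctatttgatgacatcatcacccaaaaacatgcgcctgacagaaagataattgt
The LTI65 window holds 3 matches to ACGTGNC, which begin 63, 38 and 10 bases before the start, and 1 to CCGAC, 136 bases before it. The COR15A window holds 2 matches to CCGAC, 142 and 79 bases before the start. AT3G02480 has 1 match to CCGAC, 13 bases before the start, and RABA4A has 1 to ACGTGNC, 146 bases before it. The 4 windows thus differ in which of the marked letters they hold, RABA4A being read over 149 bases only. CACGTG, the G-box, was not marked, and it occurs in the COR15A and AT3G02480 windows.

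Defence genes of the salicylic acid pathway were also at lower levels in TFIISmut mock, by less than the LEA genes. Of 19 listed genes 16 were measured, 16 of 16 had a difference below 0, the median was -0.52, and 3 of 10 eligible were lower. PR1, a pathogenesis-related gene that salicylic acid induces, stood at 2.41 FPKM in TFIISmut mock and 8.44 FPKM in TFIIS mock (-1.47), and WRKY70, a transcription factor of this response, at 13.4 and 32.2 FPKM (-1.20). After induction both stood the other way, with PR1 at 212 FPKM in TFIISmut and 2.89 FPKM in TFIIS (5.77) and WRKY70 at 140 and 19.2 FPKM (2.81). ACD6, a membrane protein gene that promotes salicylic acid signalling, was at 5.39 FPKM in TFIISmut mock and 16.5 FPKM in TFIIS mock (-1.45). ICS1, the main enzyme of salicylic acid synthesis, and EDS1, a regulator upstream of it, were at -0.13 and -0.07 and did not pass the rule.

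Most other processes differed little between the mock pools. The 28 measured nuclear photosynthesis genes had a median of 0.00, and all lay between -0.22 and 0.28. Of 12 sugar starvation genes 11 had a difference above 0, with a median of 0.22, and ASN1, an asparagine synthetase that sugar represses, was the single higher member at 23.2 FPKM in TFIISmut mock and 9.50 FPKM in TFIIS mock (1.203). Of 13 measured flavonoid genes 12 had a difference below 0, with a median of -0.34, and of 15 glucosinolate genes 14, with a median of -0.16, but 0 of either list passed the rule. CORI3, a jasmonate-responsive cystine lyase gene, was the single lower member of the jasmonate list, at 27.3 FPKM in TFIISmut mock and 83.6 FPKM in TFIIS mock (-1.58). The 17 measured genes of the elongation machinery lay between -0.25 and 0.31, with TFIIS at the lower end.

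Of the 35 higher genes 2 were in any list, and 15 were not nuclear protein-coding genes. Since the lists were chosen with earlier results of these data known, they cannot show whether the higher genes share a theme. RABA4A (AT5G65270; chr5:26083216-26084832 in TAIR10.1), a small GTPase of membrane traffic between the Golgi and the cell surface, had the largest positive difference of a nuclear protein-coding gene. It was at 58.7 FPKM in TFIISmut mock and 9.94 FPKM in TFIIS mock, and at 64.9 FPKM in TFIISmut induced and 10.6 FPKM in TFIIS induced. The differences were 2.45 and 2.50, so RABA4A separated the lines by nearly the same amount with and without estradiol. The other measured RABA4 genes did not pass the rule: RABA4B was at 43.4 FPKM in TFIISmut mock and 43.2 FPKM in TFIIS mock (0.01), and RABA4C at 2.71 and 2.93 FPKM (-0.09).

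The 10 eligible genes on each side of RABA4A, over 182 kb, lay between -0.44 and 0.47 in the mock pools, and 0 of 20 were called there or between the induced pools. Around TFIIS, where both lines carry the same insertion, the 20 neighbours lay between -0.77 and 0.19, and 0 were called in the mock pools. Between the induced pools 2 of them were called, WRKY33 at 1.28 and LTP2 at 1.64. MED10A, a subunit gene of the Mediator complex, was also higher in both comparisons, at 9.28 FPKM in TFIISmut mock and 1.98 FPKM in TFIIS mock (1.79). It was at 15.2 FPKM in TFIISmut induced and 5.37 FPKM in TFIIS induced (1.35). Next to it, 165 bases away, AT5G41908 was at 1.18 FPKM in TFIISmut mock and 7.87 FPKM in TFIIS mock (-2.03), the opposite direction. AT5G41908 was listed at 0 in TFIISmut induced and at 6.14 FPKM in TFIIS induced, so it was not eligible for a call there. Of the 20 neighbours of MED10A, 1 was called in the mock pools and 2 between the induced pools. A place of transgene insertion is not given for either line, and its part in these values was not tested.

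**Figure D4:**
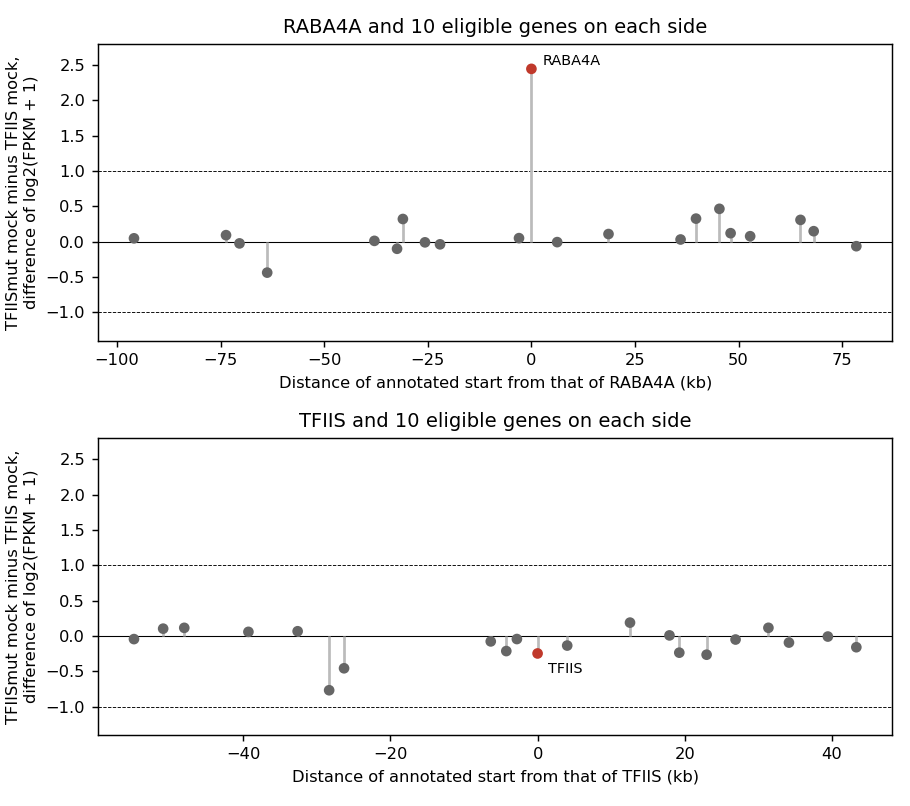
Difference of log2(FPKM + 1), TFIISmut mock minus TFIIS mock, for RABA4A (upper panel), TFIIS (lower panel) and the 10 eligible genes on each side of each, by distance of the annotated start in kb. RABA4A stands at 2.45 among neighbours between -0.44 and 0.47, and TFIIS at -0.25 among neighbours between -0.77 and 0.19.

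Short rows and organelle rows were called more often than other rows, in both directions. Rows annotated under 300 bases numbered 106, and 12 were higher and 11 lower, 21.7% together, against 0.839% of rows of 300 bases or more. Among 37 small nucleolar RNA rows, 7 were higher and 7 lower, and the robust SD of their differences was 0.83. Of 24 eligible chloroplast rows 3 were higher and 1 lower. TRNP, a chloroplast transfer RNA gene, had the largest positive difference of all eligible rows, at 356 FPKM in TFIISmut mock and 53.2 FPKM in TFIIS mock (2.72). With induction it stood at 158 FPKM in TFIISmut and 1418 FPKM in TFIIS (-3.16). Such RNAs are poorly sampled by libraries of polyadenylated RNA, FPKM of short rows rest on few positions, and the part of either in these values was not tested. Among nuclear protein-coding genes alone, 20 of 13812 were higher, or 0.145%, and 100 were lower, or 0.724%.

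The induced pools give the same contrast of lines, TFIISmut minus TFIIS, in libraries that the mock comparison did not use, but with the transgene induced. Genes eligible with and without induction numbered 13863; 469 were higher in TFIISmut induced than in TFIIS induced, 3.38%, and 344 were lower, 2.48%. Among these genes, 32 were higher in TFIISmut mock, and 10 of them were also higher in TFIISmut induced, 31.2% of the mock list and 2.13% of the induced list. A further 9 were lower there. Of 80 genes lower in TFIISmut mock, 12 were also lower in TFIISmut induced, 15% of the mock list and 3.49% of the induced list, 20 were higher and 48 were neither. Across these genes, which are not independent replicates, Pearson's r of the differences was -0.02 and Spearman's rho 0.11.

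**Figure D5:**
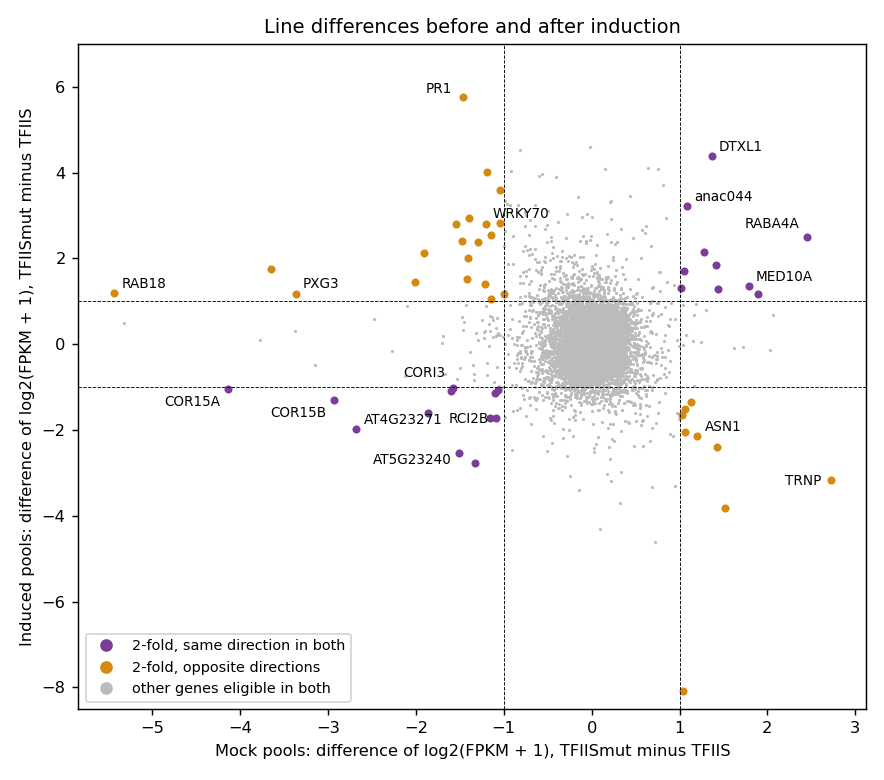
Line difference in the induced pools (vertical) against that in the mock pools (horizontal), both as TFIISmut minus TFIIS in log2(FPKM + 1), for 13863 genes eligible in both; dashed lines mark differences of 1. The 22 genes past the rule in the same direction (purple) include RABA4A at 2.45 and 2.50 in the upper right and COR15A at -4.14 and -1.05 in the lower left, and the 29 in opposite directions (orange) include PR1 and RAB18.

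Genes that were higher in TFIISmut in both comparisons were RABA4A, MED10A and 8 others. MIR398B, the precursor gene of a microRNA that acts on copper protein transcripts, was at 10.8 FPKM in TFIISmut mock and 3.44 FPKM in TFIIS mock, and at 28.5 FPKM in TFIISmut induced and 7.15 FPKM in TFIIS induced. It overlaps AT5G14550, so its row is uncertain. DTXL1, of the MATE transporter family, was at 16.4 FPKM in TFIISmut mock and 5.77 FPKM in TFIIS mock, and at 174 FPKM in TFIISmut induced and 7.36 FPKM in TFIIS induced. For these genes the TFIISmut pool was the higher under both treatments, but DTXL1 was far higher in TFIISmut induced than anywhere else.

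The 12 genes that were lower in both comparisons included AT4G23271, a row of 102 bases, at -2.68 in the mock pools and -1.98 in the induced pools. The row of AT3G26539 and PCMP-A5 was at -1.86 and -1.60, AT5G23240 at -1.51 and -2.53, and AT1G65541 at -1.33 and -2.78. Also among the 12 were COR15A, COR15B and RCI2B. RCI2B, a small membrane protein gene induced by cold, was at 19.3 FPKM in TFIISmut mock and 42.1 FPKM in TFIIS mock (-1.08). RCI2B was at 10.2 FPKM in TFIISmut induced and 35.8 FPKM in TFIIS induced (-1.72). CORI3 was at 20.3 FPKM in TFIISmut induced and 42.2 FPKM in TFIIS induced (-1.02). FUM2, the cytosolic fumarase gene, was at 9.81 FPKM in TFIISmut mock and 22.2 FPKM in TFIIS mock (-1.10), and at 3.71 and 9.39 FPKM in TFIISmut induced and TFIIS induced (-1.14). FUM2 thus kept nearly the same difference while its level was lower in both induced pools. The 14 measured members of the LEA list had a median of -1.33 between the mock pools. Between the induced pools the median was 0.16, over the 10 of them eligible there. For the drought and cold list the medians were -1.15 over 27 members and -0.32 over 22. The sets differ, since members such as LEA7 and LTI65 stayed under 5 FPKM in both induced pools.

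The threshold fell among close values. Just inside it were AT1G64500 at 1.01 and AT1G73120 at 1.02 on the higher side and AT1G02490 at -1.001 and RD22 at -1.01 on the lower side. Just outside were AT5G48490 at 0.9996 and STR15 (SEN1) at 0.99, and on the lower side CRK45 and AT3G04184, both at -0.99.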

How the data were processed

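Values were analysed as deposited: the authors' 1 FPKM value per gene and condition, already scaled for length and depth. The unit, and the reading of the 4 column names as line and treatment, were inferred from layout and values, since no header or label states them. Alignment software is Bowtie2 2.3.5, per the submitters' processing notes. How reads were quantified and libraries combined, and on which build and annotation, are details not given in the sources used here. Differences of log2(FPKM + 1) were computed from the deposited FPKM values with Python 3.11.15, numpy 2.4.6, pandas 2.3.3 and matplotlib 3.10.9, after the steps were tested on simulated data. Eligible genes had a larger value of at least 5 FPKM and no 0 in either pool. With pooled values no test, interval or detection floor was possible.

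Coordinates, biotypes and promoter sequence are those of RefSeq TAIR10.1, to which 32009 rows matched by locus identifier; the loci printed in the table were not used. Of the called rows, 31 overlap another annotated gene and 8 carry several gene names. The members, the 30 lists (419 genes) and the naming rule were chosen with earlier results of these data known. The rule takes TFIIS, then nuclear protein-coding genes with the 15 largest and 25 smallest differences, 5 each way of other rows, 10 each way of genes past the threshold in both comparisons, up to 5 members per list and 3 on each side of each threshold. PLP3B, ERD10, HIRD11, DI21, KIN2, LHCB1.2, CARB and a few further list members and neighbours fall outside it and were chosen after their values were seen. Alternatives changed the pseudocount, scaling, rows used and thresholds.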

Additional observations from a re-analysis of the deposited data

Results flagged for a closer look

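For 9 named genes the difference between the lines, TFIISmut minus TFIIS in log2(FPKM + 1), passed 1 in opposite directions in the mock and the induced pools. With 1 pooled value per condition the change between the comparisons was not tested. The drought genes RAB18 (-5.43 in the mock pools and 1.19 in the induced pools) and PXG3 (-3.37 and 1.17) are among them, as is AT5G03210 (-3.64 and 1.75). The levels behind RAB18 in the induced pools, 6.76 FPKM in TFIISmut and 2.39 FPKM in TFIIS, were far under its 119 FPKM in TFIIS mock. The salicylic acid genes PR1 (-1.47 and 5.77) and WRKY70 (-1.20 and 2.81) were lower in TFIISmut before induction and higher after it. AT1G02490 was at -1.001 and 1.18, close to the threshold both times. In the other direction stood AT1G73120 (1.02 and -1.66), ASN1 (1.203 and -2.14) and the chloroplast row TRNP (2.72 and -3.16).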

How the results depend on the processing

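No paired analysis was possible because the deposited columns are pooled and carry no replicate numbers; for the same reason no library could be left out. The counts depended most on the threshold. With a difference of at least 1.5-fold, 161 genes were higher and 338 lower in TFIISmut mock, 45 were higher and 64 lower in both comparisons, and the main counts were 35, 111, 10 and 12. Higher genes numbered 23 with organelle rows left out and the pools rescaled, which moved the median of eligible genes to -0.08. They numbered 18 without rows under 300 bases and organelle rows, and 20 among nuclear protein-coding genes; these 2 settings were chosen after seeing the data. With a minimum of 10 FPKM 4 genes were higher in both comparisons, and with rows at 0 kept 19 were lower in both. The genes lower in TFIISmut mock numbered 89 to 143 under the other settings. The pseudocount, quantile, common median and abundant gene settings left each of the 4 counts within 1.5 times its main value. Medians ranged from -1.43 to -1.31 for the LEA list, -1.47 to -1.12 for drought and cold, -1.23 to -0.92 for PP2C, 0.12 to 0.26 for receptors, 0.13 to 0.31 for sugar starvation and -0.80 to -0.37 for salicylic acid. The medians of the clock, auxin, photosynthesis, cell cycle and tissue marker lists changed sign in at least 1 setting. Of 75 named genes past the threshold, 60 to 75 kept their call in a setting, some having been left out of it, and 0 changed direction. Depth per library is unknown, so how much of the spread of genes near 5 FPKM is counting error was not tested.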

Other observations

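A number of rows were listed at 0 in a single mock pool and stand outside the comparison. At 0 in TFIISmut mock and at 5 FPKM or more in TFIIS mock were 19 rows. LHCB1.2, a light-harvesting protein gene with near-identical copies, was listed at 0 in TFIISmut mock and at 3189 FPKM in TFIIS mock, with 1745 FPKM in TFIISmut induced and 3016 FPKM in TFIIS induced. CARB, a subunit gene of carbamoyl phosphate synthetase close to it on chromosome 1, was listed at 0 in TFIISmut mock and at 46.2 FPKM in TFIIS mock. In the opposite case were 15 rows, led by the transfer RNA row AT5G60285 at 82.0 FPKM in TFIISmut mock and listed at 0 in TFIIS mock. No fold is given for these rows, since a 0 in such a table can be a failed estimate.

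Some of the 146 called genes were neighbours. Of genes next to each other among the eligible, 12 pairs were both called, 10 of them in the same direction. Besides the pairs KIN1 with KIN2, COR15A with COR15B, LTI65 with LTI78 and LTP4 with LTP3, they include AT2G19970 and PR-1-LIKE, higher by 1.18 and 1.17. Chromosome 2 had 1.66% of its eligible genes called in either direction and chromosome 4 had 0.517%, against 1.03% over all rows. Some pairs share a gene, and AT2G39518 and AT2G39520, also such a pair, overlap. The number of pairs was not set against that for genes taken without regard to their call. How much of this comes from tandem copies was not tested.

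Iron genes lay mostly below 0, and clock genes differed in both directions. The iron list had a median of -0.30, with 12 of 16 measured members below 0 and 4 above, and 1 member was lower. IMA2 (AT1G47395), a gene of the iron-signalling IRONMAN peptides, was at 7.65 FPKM in TFIISmut mock and 16.9 FPKM in TFIIS mock (-1.05), and IMA3 at 11.5 and 18.3 FPKM (-0.64). BHLH38 (ORG2), a transcription factor of iron uptake, was at 1.72 FPKM in TFIISmut mock and 0.47 FPKM in TFIIS mock (0.89). The morning clock gene CCA1 was at 3.82 FPKM in TFIISmut mock and 1.71 FPKM in TFIIS mock (0.83), and the evening gene ELF4 at 56.3 and 98.5 FPKM (-0.80). RVE8 was at 0.69, and PRR3 and GRP7 were at -0.63 and -0.62. The clock list as a whole had a median of 0.04, with 8 of 16 measured members on each side of 0. This median therefore does not show how far its members differed, although 0 passed the rule. The labels do not give the hour of harvest.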
